A study of Arabidopsis thaliana with 42 samples.

Results

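Transcript levels of the clv3-7 inflorescence apex were compared with those of the Col-0 inflorescence apex in Arabidopsis thaliana. The comparison was defined by the labels: 3 clv3-7 arrays were set against 3 Col-0 arrays, out of 42 arrays in the series, and the result was checked against the mean of the other 6 mutants (18 arrays). CLV3 encodes a small peptide that is secreted by the stem cells at the tip of the shoot and floral meristems. The peptide acts through receptor kinases of the CLAVATA type to restrict the transcription factor WUSCHEL, which maintains those stem cells. Plants that lack CLV3 are known for enlarged meristems, a thickened stem tip and flowers with extra organs, most visibly extra carpels.

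All plants of the series were grown on soil at 23 °C in continuous light, and biotin-labelled RNA was read on one-colour Affymetrix arrays of 22810 probe sets. The clv3-7 apices were taken after bolting, and the line is listed with Col-0 as its genetic background. The wild type was Col-0, also taken after bolting, and its label adds that the sample held the apex together with young flowers up to a stated stage. The other mutants, all listed with Col-0 as background and all sampled as inflorescence apices after bolting, were ufo-1, ag-12, lfy-12, ap3-6, ap2-6 and ap1-15. Each genotype had 3 arrays. The labels of the 7 mutants give no flower stage, and no label says whether the 3 samples of a genotype came from separate plants. The p-values below therefore measure only how far these samples scatter, and that scatter may be technical. In dissected tissue, fewer cells of a type and less RNA per cell cannot be told apart.

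The Col-0 apex arrays stood apart in one respect. Bacterial control RNAs that are added during labelling gave a dap signal of 3.29 ± 0.05 in clv3-7 against 7.76 ± 0.10 in Col-0 on the log2(signal + 8) scale (SD, n = 3 each), and the 6 other mutants lay between 3.09 and 3.28. The titles of the Col-0 apex samples also carry an extra 2 after the replicate letter, which those of the mutants lack. RNA quality was alike: the log2 ratio of 3′ to 5′ control signals was 1.83 ± 0.10 in clv3-7 and 1.83 ± 0.07 in Col-0. Median signals per array were 43.94 to 45.25 in clv3-7 and 44.2 to 44.4 in Col-0. The other 6 mutants were less well matched, with medians of 40.95 to 43.86, below every clv3-7 array. Their mean 3′ to 5′ log2 ratios ran from 1.555 in ap1-15 to 2.034 in ufo-1. Because of the control RNAs, clv3-7 was compared both with Col-0 and with the mean of the other 6 mutants. The second reference does not use the Col-0 arrays, but the comparisons share the clv3-7 arrays. The second difference is not printed for every gene, and a single difference with no reference named is from Col-0.

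Values are MAS5 signals, a linear intensity per probe set. Differences are on the log2(signal + 8) scale with the standard error of limma, and a probe set was called at a Benjamini-Hochberg adjusted p under 0.05 over the 14630 probe sets tested. Between clv3-7 and Col-0, 2793 probe sets were called (19.1% of those tested), 1521 higher (10.4%) and 1272 lower (8.69%) in clv3-7. Changes were mostly small, and 26 of the higher and 63 of the lower probe sets reached 2-fold. Against the mean of the other 6 mutants 4779 probe sets were called (32.7%), 2726 higher (18.6%) and 2053 lower (14%), a split that depended on scaling: 57% were higher as deposited and 38.2% after per-array median scaling. Between the mean of the other 6 mutants and Col-0, 3333 probe sets were called (22.8%), 48.8% of them higher in the mutants as deposited and 70.2% after median scaling.

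Of the 2793 probe sets called against Col-0, 1733 (62%) were called in the same direction against the other 6 mutants, which is 11.8% of all tested and 36.3% of the calls against the mutants. They comprised 958 higher (6.55%) and 775 lower (5.3%) probe sets; 55.3% were higher as deposited and 45.4% after median scaling. A further 970 (34.7%) were called against Col-0 only, and 90 were called in opposite directions. Of the 26 probe sets at least 2-fold above Col-0, 22 were also above the other 6 mutants, and of the 63 at least 2-fold below Col-0, 43 were also below them. The clv3-7 arrays lay outside the Col-0 arrays for 37.6% of all probe sets, above all 21 other apex arrays for 2.95% and below all of them for 1.85%. Set beside the other lines, clv3-7 was among those with fewer calls against the same Col-0 arrays: 2793 in clv3-7, 2748 in ufo-1, 3030 in ap2-6, 3483 in ap3-6, 3930 in ag-12, 3952 in lfy-12 and 4020 in ap1-15. Calls of at least 2-fold numbered 89 in clv3-7 and between 136 and 290 in the 6 others.

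**Figure D1:**
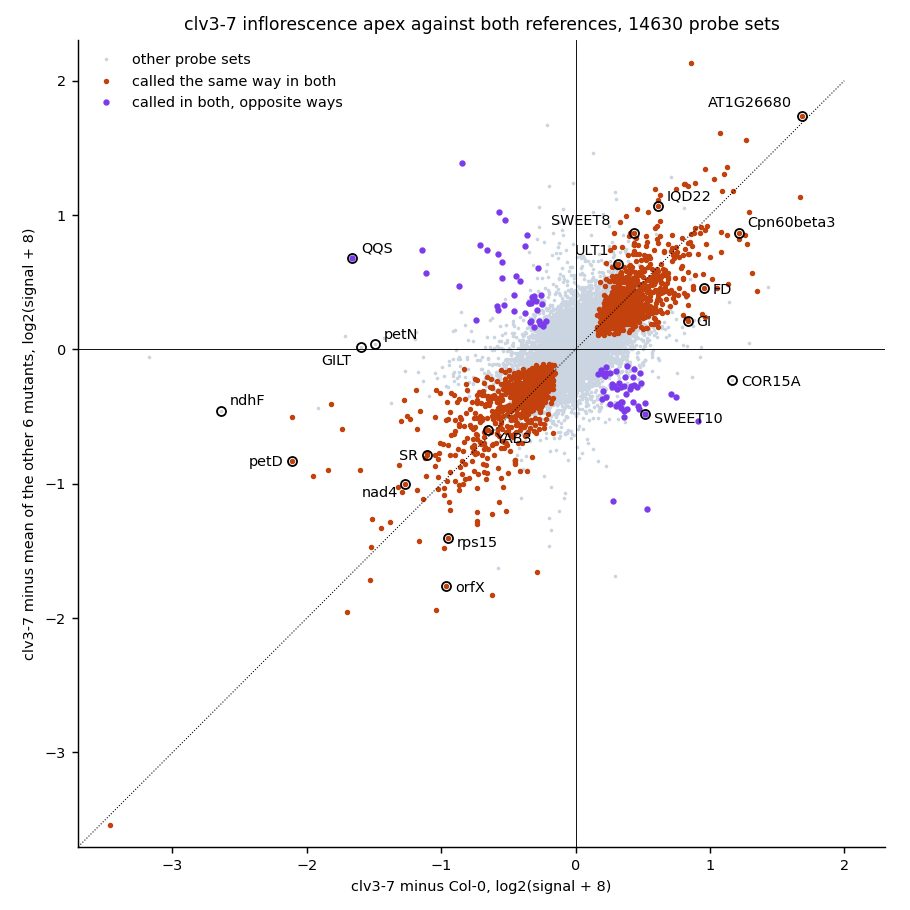
Each point is 1 of 14630 probe sets. The x axis gives clv3-7 minus Col-0 and the y axis clv3-7 minus the mean of the other 6 mutants, both on the log2(signal + 8) scale; orange points were called the same way in both (1733), violet points in opposite ways (90), and circles mark genes named in the text. The axes share the clv3-7 arrays. Cpn60beta3 and AT1G26680 lie at the upper right, orfX, rps15 and nad4 at the lower left, while petN and GILT lie near 0 on the y axis and COR15A at -0.23.

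The mutated gene itself gave no usable signal. The probe set of CLV3 read 3.3, 2.3 and 12.6 in clv3-7, against 2.68, 1.4 and 14.6 in Col-0. Neither it nor CLE40, a peptide gene of the same family, passed the filter on any of the 24 apex arrays, so the array does not check the clv3-7 label. The highest CLV3 signal on any apex array was 16.2, while the filter lay between 19.9 and 23.1.

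Among the CLAVATA signalling genes, 5 of the 18 listed had a tested probe set, and none was called against Col-0, where 19.1% of all probe sets were; CLV1, CLV2 and WUS were not analysed here. Their median difference was 0.12, beside 0.01 over all probe sets. POL, a phosphatase that acts downstream of the CLAVATA receptors, read 185, 177 and 184 in clv3-7, against 163, 175 and 164 in Col-0. The clv3-7 arrays lay just above the Col-0 arrays, and the difference of 0.12 ± 0.09 was not called (adjusted p = 0.39). Against the other 6 mutants POL was higher by 0.29 ± 0.07 (adjusted p = 0.0015), and its clv3-7 arrays lay above all 21 other arrays. CLE41, a peptide gene of vascular stem cell signalling, differed by 0.12 ± 0.08 from Col-0, not called, with overlapping arrays, and was 0.19 ± 0.06 above the mutants (adjusted p = 0.0145). The CLE41 call against the mutants was lost without clv3-7 replicate 2 or 3 (adjusted p = 0.125 and 0.0929) and with median scaling (0.0954). CLE44, which encodes the same peptide as CLE41, was 0.26 ± 0.10 above Col-0 (adjusted p = 0.0666). It passed the threshold without clv3-7 replicate 2 (adjusted p = 0.0376) and without Col-0 replicate 3 (0.0495). CLE27 and CR4, the receptor kinase ACR4 that perceives CLE40 in roots, differed from Col-0 by 0.25 ± 0.11 and 0.02 ± 0.11, neither of them called.

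ULT1 was the 1 tested member of the list of stem cell and meristem regulators, and it was higher in clv3-7. This gene encodes a SAND-domain protein that restricts shoot and floral meristem size and helps to end floral stem cell activity. ULT1 read 231, 244 and 237 in clv3-7, against 186, 187 and 193 in Col-0, so the groups did not overlap. The difference was 0.32 ± 0.08 (adjusted p = 0.0042). In the other 6 mutants ULT1 ranged from 105 to 314 with a median of 134, and clv3-7 was 0.63 ± 0.06 above their mean. It exceeded 5 of the 6 mutants and lay below ap2-6 (282 on average). UFO, the F-box partner of LEAFY in petal and stamen specification, read 36.4, 30.8 and 36.6 in clv3-7, against 29.2, 26.4 and 27.4 in Col-0. Its clv3-7 arrays were all above the Col-0 arrays, but the difference of 0.25 ± 0.18 was not called (adjusted p = 0.35). Against the other 6 mutants UFO was higher by 0.66 ± 0.14, with the lowest signals, 3.96 on average, in ap2-6.

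Among genes that promote or repress flowering, FD was raised most. FD encodes the bZIP protein through which the florigen FT acts at the shoot apex. It read 85.8, 90.7 and 112 in clv3-7, against 47.4, 40 and 49.2 in Col-0, with no overlap. The difference was 0.96 ± 0.12, a 1.94-fold rise (adjusted p = 1.1e-06). Against the other 6 mutants FD was 0.46 ± 0.09 higher, although ap1-15, with 156 on average, was above clv3-7 and lfy-12, with 78.5, was not distinguished from it (adjusted p = 0.0762). AGL24, a MADS-box promoter of inflorescence fate, read 55.8, 53.9 and 47.4 in clv3-7, against 31.6, 37.6 and 33.5 in Col-0. The rise was 0.52 ± 0.13 (adjusted p = 0.0067), while the difference from the other mutants was 0.04 ± 0.10, not called. AGL42, a MADS-box relative of SOC1, differed by -0.11 ± 0.10 from Col-0, not called, and was 0.61 ± 0.07 lower than the other mutants. Across the Col-0 samples FD averaged 45.6 in the inflorescence apex, 125 in the transition apex and 37.9 in the vegetative apex, so the 96.2 of clv3-7 lay between the inflorescence and transition values. AGL24 averaged 52.4 in clv3-7, 34.2 in the Col-0 inflorescence apex and 156.5 in the transition apex.

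Among 4 tested members of the carpel and ovule list, 1 rose and 1 fell against Col-0, and the median difference was -0.07. Of all probe sets 10.4% were higher and 8.69% lower, with a median of 0.01. Against the other 6 mutants 2 members were higher and 1 lower, beside 18.6% and 14%. The ALC and NGA2 calls among these were lost without clv3-7 replicate 1 (adjusted p = 0.0534 and 0.0695). SPT, a bHLH regulator of the carpel margin, style and stigma, read 154, 163 and 151 in clv3-7, against 111, 112 and 110 in Col-0. All 3 clv3-7 arrays were well above the Col-0 arrays, and the rise was 0.46 ± 0.07 (adjusted p = 1.0e-05). SPT was also 0.43 ± 0.05 above the other 6 mutants, but it did not differ detectably from ap1-15 (0.01, adjusted p = 0.92) or ap2-6 (0.09, adjusted p = 0.37). ALC, the closest relative of SPT with a role in fruit opening, read 140, 134 and 147 in clv3-7, against 130, 123 and 132 in Col-0, a difference of 0.12 ± 0.08 that was not called. NGA1, a B3-domain gene of style development, read 25.2, 23.3 and 31.2 in clv3-7, against 51.1, 45.8 and 43.1 in Col-0. It fell by 0.67 ± 0.14 (adjusted p = 0.0012), while against the other mutants the difference of -0.27 ± 0.11 lay at the threshold (adjusted p = 0.0501) and passed it without clv3-7 replicate 3 (0.0306). NGA2 differed from Col-0 by -0.27 ± 0.16, not called.

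Anther genes showed no call against Col-0 in any of 8 tested members, with a median of -0.10, where 19.1% of all probe sets were called. EMS1, the receptor kinase that specifies the tapetum, read 313, 295 and 293 in clv3-7, against 292, 306 and 355 in Col-0. ROXY1, a glutaredoxin of petal and anther development, read 116, 122 and 102 in clv3-7, against 118, 114 and 111 in Col-0. Both sets of arrays overlapped. SPL lay below Col-0 on all clv3-7 arrays but was not called (-0.52 ± 0.20, adjusted p = 0.071). Against the other 6 mutants EMS1 (0.30 ± 0.06), ROXY1 (0.53 ± 0.12) and ROXY2 (0.68 ± 0.18) were higher in clv3-7. AT5G07230 (-0.42 ± 0.14) and JAG (-0.32 ± 0.12) were lower, beside 18.6% higher and 14% lower of all probe sets. AT5G07230 averaged only 3.91 in clv3-7, and its call was lost without clv3-7 replicate 1 or 2 (adjusted p = 0.085 and 0.107). Among the single mutants it was called lower than ap2-6 (-2.90) and ufo-1 (-0.86) only. The JAG call was lost without any 1 of the 3 clv3-7 arrays (adjusted p = 0.0757 to 0.187). Taken singly, EMS1 was below ap2-6 (-0.29, adjusted p = 0.0059). ROXY1 and ROXY2 were not distinguished from ap1-15, nor ROXY2 from ap2-6. The summed signal of the anther list was 500 to 525 in clv3-7, 535 to 594 in Col-0 and 304 to 717 in the other mutants. The sum of the carpel list was 338 to 360 in clv3-7, 307 to 329 in Col-0 and 235 to 464 in the mutants. How far the amount of young flower tissue in the samples contributed to any of these differences was not tested.

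Of 5 tested genes of organ primordia and polarity, YAB3 was the only one called against Col-0, where 19.1% of all probe sets were. YAB3 encodes a YABBY protein of the abaxial side of lateral organs. It read 115, 121 and 136 in clv3-7, against 194, 220 and 183 in Col-0, and fell by 0.65 ± 0.08 (adjusted p = 3.8e-06). It was also 0.60 ± 0.06 below the other 6 mutants and was called lower than each of them, with only ap1-15, at 135 on its lowest array, reaching into the clv3-7 range. JAG and NUB, related zinc-finger genes of organ growth, read 28.0 to 32.2 and 26.6 to 29.4 in clv3-7, against 36.7 to 46.9 and 32.6 to 43.1 in Col-0. Each lay below Col-0 on all arrays, yet neither passed the test (adjusted p = 0.11 and 0.089). PHV, a class III HD-ZIP gene of the adaxial side, differed by -0.03 ± 0.11. The summed signal of this list was 516 to 577 in clv3-7, 628 to 699 in Col-0 and 474 to 682 in the other mutants.

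Of 3 tested auxin genes 1 was lower than Col-0, where 8.69% of all probe sets were: GH3.3, an enzyme that conjugates auxin to amino acids. It read 161, 180 and 172 in clv3-7, against 281, 265 and 266 in Col-0, a fall of 0.64 ± 0.09 (adjusted p = 8.2e-06), and it was 0.37 ± 0.07 below the other mutants. WES1, a second conjugating enzyme, and YUC4, an enzyme of auxin synthesis, differed from Col-0 by -0.13 ± 0.08 and 0.17 ± 0.11, neither called. The cytokinin response regulators ARR15 and RR16 (0.12 ± 0.12 and -0.21 ± 0.18) and the gibberellin receptors GID1A and GID1B (0.10 and -0.07) were not called either. PRL, a subunit of the DNA replication complex, and the histone genes HTB1 and HTB2 were not called against Col-0, with a median of -0.06 for the 3. Against the other 6 mutants PRL was higher by 0.24 ± 0.04 and HTB2 by 0.19, the HTB2 call being lost with median scaling (adjusted p = 0.19) and without clv3-7 replicate 2 or 3 (0.213 and 0.242).

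**Figure D2:**
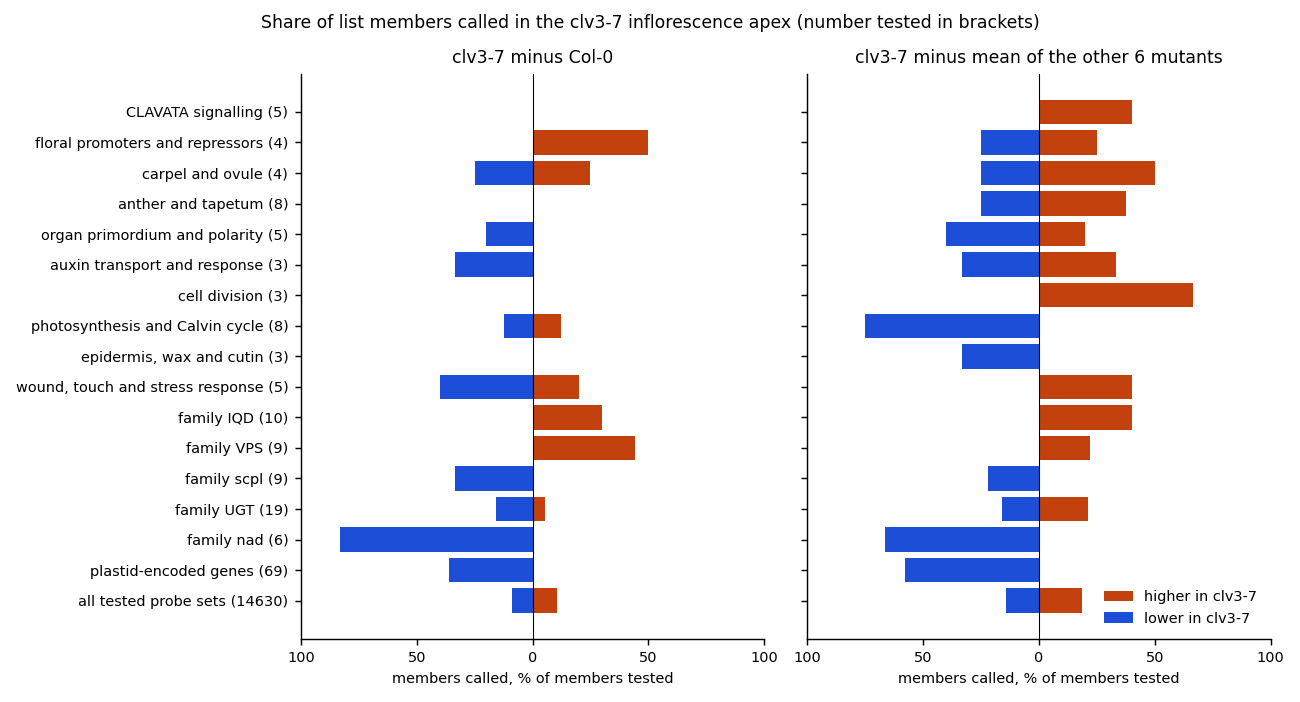
Bars give the percentage of tested members called higher (orange, to the right) or lower (blue, to the left) in clv3-7, against Col-0 in the left panel and against the mean of the other 6 mutants in the right panel; the bottom row is all 14630 probe sets. The nad and plastid-encoded rows are called lower only, and the CLAVATA, anther and cell division rows have no call against Col-0.

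The 12 highest genes with a name were ranked by the smaller of the differences from Col-0 and from the other 6 mutants, out of 62 that rose against both without overlapping the Col-0 arrays. Cpn60beta3, a subunit of the chloroplast chaperonin that folds imported and plastid-made proteins, led them. It read 178, 163 and 152 in clv3-7, against 69.1, 67.2 and 62.6 in Col-0, a 2.32-fold rise (1.21 ± 0.09, adjusted p = 2.7e-10). The clv3-7 arrays lay above all 21 other arrays, the highest of which, in lfy-12, read 142. In Col-0 shoots Cpn60beta3 was higher elsewhere, at 217 in the transition apex and 252 in the vegetative apex. IQD22, a calmodulin-binding protein of the IQ67-domain family, read 192, 181 and 168 in clv3-7, against 109, 119 and 117 in Col-0. It rose by 0.61 ± 0.09 against Col-0 and by 1.07 ± 0.07 against the other mutants, which ranged from 44.8 to 152. GH9C2, a cell wall endoglucanase of glycosyl hydrolase family 9, read 453, 427 and 406 in clv3-7, against 288, 277 and 283 in Col-0 (0.59 ± 0.07, adjusted p = 7.7e-07), also above every other array.

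WLIM2b, an actin-bundling LIM protein, had the highest signals of the 12, with 843, 894 and 918 in clv3-7, against 651, 600 and 591 in Col-0. Its rise of 0.52 ± 0.05 was called against each of the 6 mutants as well, and no other apex array exceeded 707. BZIP61, a bZIP gene, was the only 1 of 5 tested BZIP family members called against Col-0, where 19.1% of all probe sets were. BZIP61 read 106, 82.8 and 92.8 in clv3-7, against 55.9, 65.1 and 62.6 in Col-0 (0.55 ± 0.11), and EEL, a bZIP protein which represses the seed gene Em, read 68.0, 55.8 and 60.4 in clv3-7, against 37.8, 42.7 and 45.2 in Col-0 (0.48 ± 0.12). BZIP61 exceeded all 21 other arrays, whereas EEL overlapped those of ap1-15. GSTU20, a glutathione transferase, read 653, 703 and 674 in clv3-7, against 458, 470 and 461 in Col-0 (0.54 ± 0.05).

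The remaining 3 of the 12 each lost their call against Col-0 when a single array was left out. STR18, a sulfurtransferase, read 56.5, 42.2 and 50.9 in clv3-7, against 31.3, 33.5 and 29.1 in Col-0 (0.55 ± 0.15, adjusted p = 0.0103), and missed the threshold without clv3-7 replicate 1 (adjusted p = 0.0634). ATGP4 read 266, 291 and 211 in clv3-7, against 170, 176 and 198 in Col-0 (0.47 ± 0.12), and missed it without clv3-7 replicate 2 (adjusted p = 0.0589). SWEET8, a sugar transporter needed for the pollen wall, read 47.4, 47.1 and 53.5 in clv3-7, against 33.7, 39.4 and 30.4 in Col-0 (0.44 ± 0.13, adjusted p = 0.0198). Its call was lost without clv3-7 replicate 3, Col-0 replicate 1 or Col-0 replicate 3 (adjusted p = 0.0809, 0.0626 and 0.0952). SWEET8 was 0.87 ± 0.10 above the mean of the other mutants, in which it varied from 9.08 to 115 with ap2-6 highest. Of the 12 genes, 5 had clv3-7 arrays above all 21 others, and 5 were called higher than each of the 6 mutants taken singly. The ranking favours both counts, and 2.95% of all probe sets lay above all 21.

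The 12 lowest genes by the same rule were all encoded in the organelles, 9 in the plastid and 3 in the mitochondrion, and are described further on. The lowest nuclear genes were therefore listed after the values had been seen, 12 of the 49 that met the same criteria. CYTC6A, a cytochrome of the thylakoid lumen, read 60.3, 67.0 and 58.7 in clv3-7, against 141, 131 and 129 in Col-0, a fall of 1.02 ± 0.08 (adjusted p = 9.3e-10). SR, a serine racemase, read 29.6, 30.4 and 28.6 in clv3-7, against 71.0, 74.8 and 71.8 in Col-0, a fall of 1.1 ± 0.09 (adjusted p = 8.2e-10). The lowest other arrays were 91.3 for CYTC6A and 46.4 for SR, so both genes were lower in clv3-7 than on all 21 others. PAC, needed for chloroplast development and plastid RNA maturation, read 76.8, 82.6 and 73.9 in clv3-7, against 117, 124 and 129 in Col-0 (-0.62 ± 0.07), again below every other array.

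ENGase85B, which trims free N-glycans in the cytosol, and SIRB, the enzyme that inserts iron to make siroheme, were likewise below all 21 other arrays. ENGase85B read 40.3, 44.9 and 43.3 in clv3-7, against 67.0, 68.2 and 70.0 in Col-0 (-0.59 ± 0.08). SIRB read 87.3, 99.1 and 92.5 in clv3-7, against 135, 124 and 127 in Col-0 (-0.44 ± 0.07). MSRB9, a methionine sulfoxide reductase, fell by 0.75 ± 0.11 and GRXC1, a glutaredoxin, by 0.71 ± 0.14, both also below the mean of the other 6 mutants (-0.78 and -0.69). Taken singly, MSRB9 was not distinguished from ag-12 (adjusted p = 0.182), nor GRXC1 from ap1-15 (adjusted p = 0.313). ARPN, a blue copper protein called plantacyanin, fell by 0.51 ± 0.08, AGL87, a MADS-box gene, by 0.79 ± 0.16 and scpl35, a serine carboxypeptidase-like gene, by 1.05 ± 0.07. In clv3-7 scpl35 was nevertheless called higher than in ap1-15 (0.89). LigB fell by 0.43 ± 0.13, and this call was lost without clv3-7 replicate 2 or 3 or Col-0 replicate 1 or 2 (adjusted p = 0.0703 to 0.0973). Of the 12 genes, 6 were called lower than each of the 6 mutants taken singly, a count that the ranking favours.

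**Figure D3:**
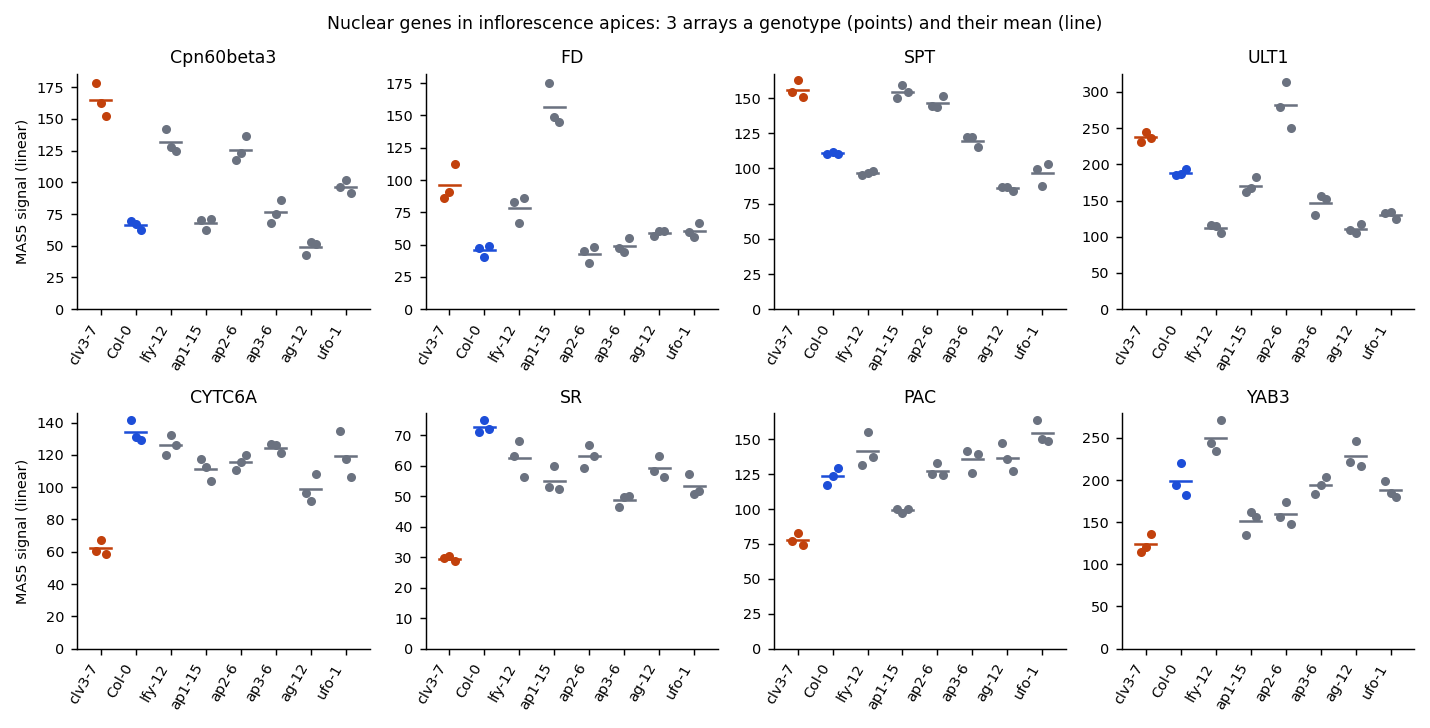
Each panel shows 1 nuclear gene, with the linear MAS5 signal from 0 on the y axis and the 8 genotypes on the x axis, clv3-7 at the left; points are the 3 arrays and lines their mean. Cpn60beta3 lies above and CYTC6A, SR and PAC lie below every other genotype in clv3-7, whereas FD is exceeded by ap1-15, ULT1 by ap2-6, and SPT is matched by ap1-15.

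The largest change of all lay in a probe set that the annotation leaves without a gene. Probe set 265818_at read 28.4, 37.3 and 33.1 in clv3-7, against 455, 397 and 477 in Col-0, and 414 to 531 on the 18 arrays of the other mutants. It was singled out after its values were seen. The difference was -3.46 ± 0.07 from Col-0 and -3.54 ± 0.06 from the other 6 mutants (adjusted p = 2.0e-22 and 1.1e-25), while the other mutants and Col-0 differed by 0.08 ± 0.06. The second largest, AT5G26270, lay apart on the Col-0 arrays. AT5G26270 read 17.5, 19.6 and 22.4 in clv3-7, against 249, 243 and 237 in Col-0, but 11.6 to 33.4 on the arrays of the other mutants. It therefore differed by -3.18 ± 0.20 from Col-0 and by -0.06 ± 0.15 from the other 6 mutants.

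Genes known by locus alone included changes larger than most named ones, and the annotation used here gives them no role. AT1G26680 read 59.6, 51.9 and 52.8 in clv3-7, against 14.7, 11.3 and 8.89 in Col-0, and at most 25.8 in the other mutants (1.69 ± 0.21 and 1.74 ± 0.16). AT2G18100 read 75.4, 73.4 and 71.3 in clv3-7, against 28.3, 29.3 and 26.8 in Col-0, with 22.6 to 33.8 in the other mutants (1.17 ± 0.12 and 1.18 ± 0.09). AT5G25570 read 13.9, 16.1 and 14.3 in clv3-7, against 56.0, 51.7 and 64.4 in Col-0 (-1.52 ± 0.11 and -1.47 ± 0.08). AT1G24290 and AT1G73650 were 1.52 and 1.17 lower than Col-0 and 1.26 and 1.43 lower than the other mutants. In 8 of the 10 locus-only genes picked by the rule, the clv3-7 arrays lay outside all 21 other arrays. The rule favours such genes, since it ranks by the smaller difference from the references. Of all probe sets 2.95% lay above and 1.85% below all 21.

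These genes were looked at along the chromosomes, since a mutant line can carry a segment linked to its mutation. In the window of 20 neighbouring tested genes centred on CLV3, on chromosome 2, 3 genes were called against Col-0 and 1 the same way against both references, none of them 2-fold. The median over 7727 windows was 3 and 2, and the highest was 11 and 8. The share called the same way against both was 10.1% to 11.8% on the 5 chromosomes. Of the windows with a gene 2-fold changed against both, that starting at AT1G73200, which holds AT1G73650, had 6 genes called against both, all 6 lower in clv3-7. The window starting at AT5G25270, which holds AT5G25570, had 7, of which 3 were higher and 4 lower. So did the window starting at AT5G60610, with 7, of which 3 were higher and 4 lower.

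The plastid genome encodes parts of the photosynthetic complexes, the plastid ribosome and the plastid RNA polymerase, and it supplied 9 of the 12 lowest named genes. Of 69 plastid-encoded genes, a list assembled after these values had been seen, 25 were lower and none higher in clv3-7 than in Col-0, while 8.69% of all probe sets were lower. The median difference was -0.28, beside 0.01 over all probe sets. Against the other 6 mutants 40 were lower and none higher, with a median of -0.36 (34 lower and 1 higher with quantile normalization), where 14% of all probe sets were lower. The 20 genes lower against both references came from every complex. The NADH dehydrogenase-like complex that cycles electrons around photosystem I had 6 of 10 ndh genes lower than Col-0, 8 lower than the mutants and 5 lower than both. Lower than Col-0 were also 4 of 6 pet genes of the cytochrome b6f complex, 2 of 5 psa genes of photosystem I, 2 of 15 psb genes of photosystem II and 1 of 6 atp genes of the ATP synthase. Of the 4 RNA polymerase genes 2 were lower than Col-0, and of the 15 ribosomal protein genes 4 (1 rpl and 3 rps).

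The 3 clv3-7 arrays differed among themselves for some of these genes. The ndhJ gene read 58.5, 49.0 and 38.6 in clv3-7, against 128, 142 and 144 in Col-0 (-1.38 ± 0.17), and at least 74.0 elsewhere. The ndhG gene read 215, 68.8 and 66.7 in clv3-7, against 412, 390 and 438 in Col-0 (-1.95 ± 0.23), and ndhE read 160, 71.7 and 62.3 in clv3-7, against 254, 410 and 386 in Col-0 (-1.84 ± 0.24). Replicate 1 was thus far above the other clv3-7 arrays for both, though below every Col-0 array. For petD, subunit IV of the cytochrome b6f complex, the signals were 47.1, 22.1 and 25.5 in clv3-7, against 147, 153 and 171 in Col-0, a 4.31-fold decrease (-2.11 ± 0.18, adjusted p = 2.1e-09). Against the other 6 mutants the differences were smaller, at -0.94 for ndhG, -0.90 for ndhE and -0.83 for petD, a 1.78-fold decrease for petD. The mean of those mutants itself differed from Col-0 by -1.01 for ndhG, -0.94 for ndhE and -1.28 for petD. Over the 25 lowered genes the median signal was 208, 155 and 130 on the clv3-7 arrays, against 328, 378 and 386 on the Col-0 arrays. Replicate 1 was the highest clv3-7 array for 44 of the 69 genes, and without it the counts were 25 lower than Col-0 and 40 lower than the mutants, as with all arrays.

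Among the photosystem genes, psaC, which carries the terminal iron-sulfur clusters of photosystem I, read 115, 72.7 and 74.7 in clv3-7, against 203, 217 and 244 in Col-0. Its fall of 1.29 ± 0.38 (adjusted p = 0.0188) had the widest error of those named, and the call was lost without clv3-7 replicate 2, clv3-7 replicate 3 or Col-0 replicate 3 (adjusted p = 0.069, 0.0631 and 0.0607). The small photosystem II subunit gene psbZ read 692, 673 and 689 in clv3-7, against 1209, 1177 and 1260 in Col-0 (-0.82 ± 0.11), below all 21 other arrays. Lower still against the other mutants than against Col-0 were rps15, of the small plastid ribosomal subunit (-0.95 ± 0.13 and -1.41 ± 0.10), and accD, of the plastid acetyl-CoA carboxylase (-0.84 ± 0.14 and -1.0 ± 0.11). The accD signals were 241, 197 and 200 in clv3-7, against 355, 410 and 392 in Col-0. The large Rubisco subunit gene rbcL was lower by -1.11 and -0.77, and psbA of the photosystem II core by -0.89 and -0.78.

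Other plastid genes were called against Col-0 only. The ndhF gene read 25.8, 6.63 and 7.17 in clv3-7, against 157, 78.2 and 120 in Col-0, but 8.64 to 27.6 in the other mutants (-2.64 ± 0.24 and -0.46 ± 0.18, the second with adjusted p = 0.0532). The petN gene read 146, 90.4 and 69.6 in clv3-7, against 315, 250 and 309 in Col-0, and 64.3 to 135 in the other mutants (-1.5 ± 0.17 and 0.04 ± 0.13). Without clv3-7 replicate 1, ndhF (-0.85, adjusted p = 0.00052) and rps14 (-0.91, adjusted p = 9.7e-06) were also called lower than the other mutants. Some plastid genes of high signal were not called against Col-0: atpB differed by 0.08 and psaA by 0.38. The atpB signal was 0.32 lower than that of the other 6 mutants (adjusted p = 0.00044), and psaA differed from them by -0.25, not called. The atpA gene, of the ATP synthase, differed by 0.22 from Col-0, not called, and was 0.87 lower than the other 6 mutants.

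**Figure D4:**
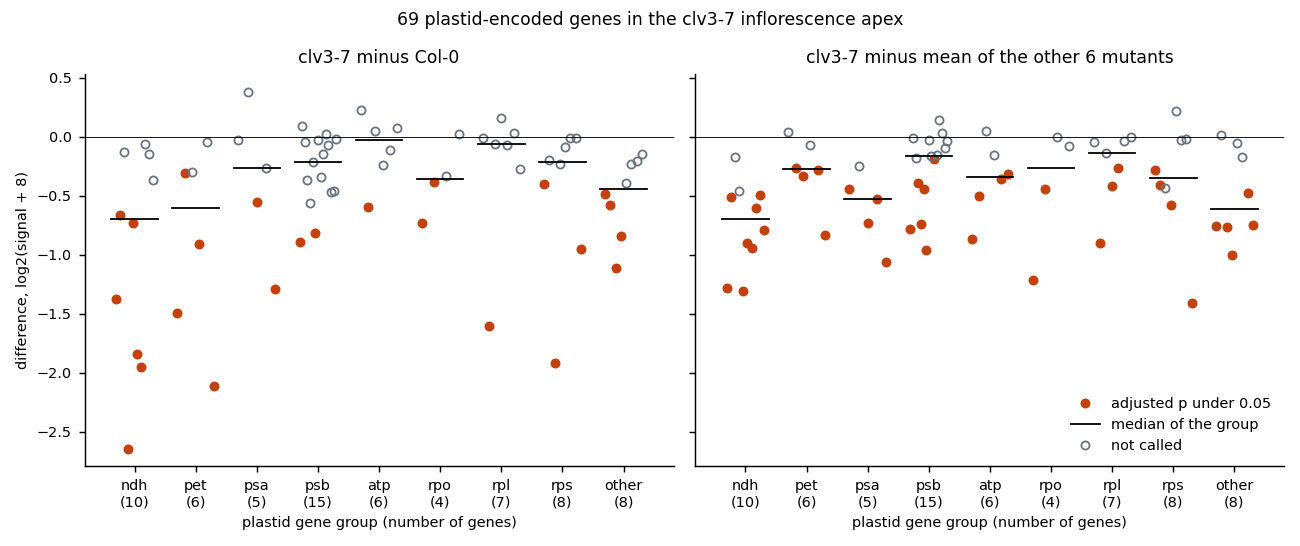
Each point is 1 of 69 plastid-encoded genes, grouped by complex on the x axis, with the difference of clv3-7 from Col-0 (left) or from the mean of the other 6 mutants (right) on the y axis in log2(signal + 8). Filled points were called, open points were not, and bars are group medians. All filled points lie below 0 in both panels, with the lowest in the ndh and pet groups in the left panel.

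The nad genes encode subunits of respiratory complex I, and 5 of 6 tested were lower than Col-0 (median -0.71) and 4 of 6 lower than the other mutants (median -0.33), beside 8.69% and 14% of all probe sets. The nad4 gene read 156, 187 and 171 in clv3-7, against 374, 460 and 444 in Col-0, and 270 to 473 in the other mutants (-1.27 ± 0.14 and -1.0 ± 0.10). For cox1, the core subunit of cytochrome oxidase, the signals were 92.8, 95.1 and 89.7 in clv3-7, against 246, 233 and 247 in Col-0 (-1.31 ± 0.12 and -0.86 ± 0.10), and the lowest other array read 98.8. The open reading frame orfX read 69.1, 59.7 and 99.0 in clv3-7, against 150, 160 and 149 in Col-0 (-0.97 ± 0.14), and 144 to 382 in the other mutants (-1.76 ± 0.11). Its probe set carries a suffix for shared targets. The nad9 gene, by contrast, differed by 0.15 from Col-0, not called. Without clv3-7 replicate 2 or 3, 4 of the 6 nad genes were lower than Col-0 and 2 of the 6 lower than the mutants, and without Col-0 replicate 2 or 3, 4 of the 6 were lower than Col-0.

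**Figure D5:**
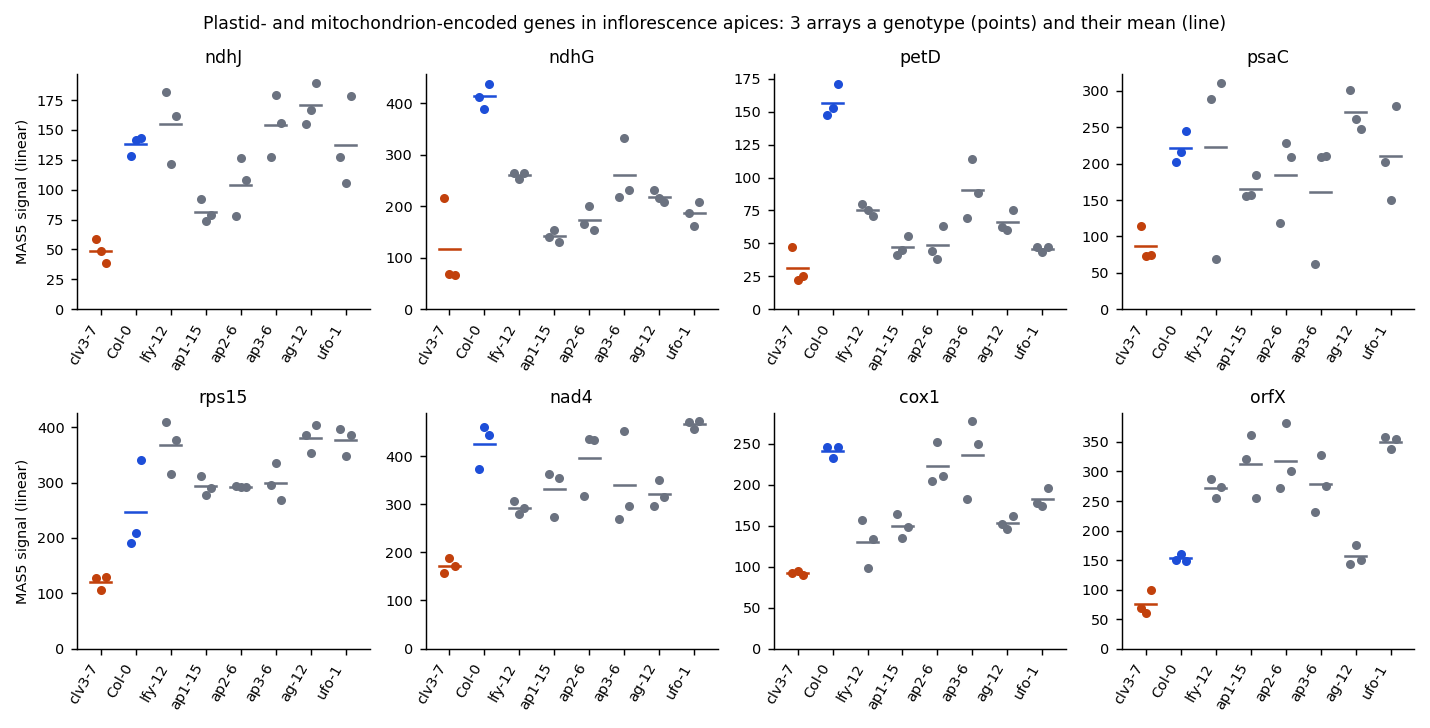
Each panel shows 1 organelle gene, with the linear MAS5 signal from 0 on the y axis and the 8 genotypes on the x axis, clv3-7 at the left; points are the 3 arrays and lines their mean. ndhJ, rps15, nad4, cox1 and orfX lie below all 21 other arrays in clv3-7, and ndhG, petD and psaC show 1 clv3-7 array above the other 2.

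Of 8 tested genes of photosynthesis and the Calvin cycle, 1 was higher and 1 lower than Col-0, and 6 were lower than the mean of the other mutants. Of all probe sets 10.4% were higher and 8.69% lower than Col-0, and 14% lower than the mutants. HPR, of photorespiration, differed by 0.26 from Col-0 and RCA, the activase of Rubisco, by -0.27, both called. Taken singly, the mutants differed: LHCB4.2, SBPASE, PRK and RCA were called higher in clv3-7 than in ap1-15 (0.26 to 0.39). Each was called lower than in lfy-12, ag-12 and ufo-1. The list summed to 4084 to 4205 in clv3-7, 4095 to 4304 in Col-0 and 3108 to 7125 in the other mutants. With the 3′/5′ ratio of each array as a covariate, 27 plastid genes were lower than Col-0 and 40 lower than the mutants.

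Some nuclear genes were called against Col-0 only or in opposite ways against the references. COR15A, a cold-induced chloroplast protein, read 48.2, 54.2 and 52.3 in clv3-7, against 14.6, 16.2 and 26.2 in Col-0, a rise of 1.16 ± 0.16. The other 6 mutants ranged from 19.7 to 263, and clv3-7 differed from their mean by -0.23 ± 0.12, not called. GILT read 2.06, 3.77 and 7.63 in clv3-7, against 34.1, 23.7 and 30.2 in Col-0, and at most 11.7 in the other mutants. QQS, an Arabidopsis-specific gene linked to starch content, read 22.6, 24.7 and 24.1 in clv3-7, against 94.9, 90.2 and 92.3 in Col-0, yet was 0.68 ± 0.18 above the other mutants, in which it reached 44.9 at most. SWEET10, a sugar transporter induced at the floral transition, read 233, 214 and 245 in clv3-7, against 155, 168 and 153 in Col-0 (0.52 ± 0.07), and was 0.48 ± 0.06 below the other mutants. The clock gene GI rose by 0.83 against Col-0 and by 0.21 against the mutants (adjusted p = 0.0464), and the call against the mutants was lost with median scaling (0.159) and without any 1 of the 3 clv3-7 arrays (0.0997 to 0.141). Harvest times are not in the labels.

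Of the stress list, 1 of 5 tested genes was higher (COR15A) and 2 were lower than Col-0, beside 10.4% and 8.69% of all probe sets. The lower genes were ORA47 (-0.55 ± 0.18, not called without any 1 of 5 single arrays) and the thionin gene THI2.2 (-0.46 ± 0.10). The thionin gene THI2.1 averaged 894 in clv3-7 and 893 in Col-0. The 3 tested entries of the epidermis, wax and cutin list showed no call against Col-0, where 19.1% of all probe sets were called. Of these, FDH was matched by symbol to AT5G14780, a formate dehydrogenase gene, and is not an epidermal marker. The sum of the list was 389 to 405 in clv3-7, 393 to 430 in Col-0 and 399 to 685 in the other mutants. It includes FDH, which averaged 88.9 in clv3-7 and 82.5 in Col-0. Vascular and secondary wall genes, 2 tested, were not called either, with sums of 53.0 to 68.7 in clv3-7, 51.6 to 67.8 in Col-0 and 50.9 to 78.9 in the other mutants.

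The families that share a gene symbol are to be read beside the 10.4% of all probe sets that were higher and the 8.69% that were lower than Col-0. Of 10 tested IQD genes, 3 were higher than Col-0 and none lower: IQD22, IQD31 (0.29 ± 0.06) and IQD30 (0.28 ± 0.08), all also higher than the other mutants, although IQD30 lost its call without clv3-7 replicate 1 or Col-0 replicate 1 or 2 (adjusted p = 0.0549 to 0.131). Of 9 VPS genes, which sort proteins to the vacuole, 4 were higher and none lower than Col-0, and VPS60.2 (0.34 ± 0.10) and VPS24.1 (0.32 ± 0.10) were higher than the mutants too. VPS60.2 lost its call against Col-0 without clv3-7 replicate 1 or Col-0 replicate 1 (adjusted p = 0.0822 and 0.112), and VPS24.1 without clv3-7 replicate 2 or Col-0 replicate 1 (0.0899 and 0.0783). VPS2.1 (0.26) lost it in 5 of the 6 fits that left out 1 array and with quantile normalization or median scaling, and VPS46.2 (0.24) lost it without clv3-7 replicate 3 or Col-0 replicate 2 or 3. Without Col-0 replicate 1, 1 of the 9 was called, and without any 1 of clv3-7 replicates 2 and 3 and Col-0 replicates 2 and 3, 2 were. Of 9 scpl genes 3 were lower than Col-0, but without clv3-7 replicate 3, Col-0 replicate 1 or Col-0 replicate 3 only 1 was called. scpl25 (-0.17) lost its call in all 6 fits that left out 1 array and scpl50 (-0.26) in 4 of them. Both were near 0 against the other mutants (4.58e-06 and -0.0044), whereas scpl35 was lower than Col-0 and than the mean of the mutants. Taken singly, scpl35 was higher than ap1-15 (0.89, adjusted p = 4.7e-11) and not distinguished from ap2-6 (-0.03, adjusted p = 0.776). Of 13 genes with the symbol stem TRM, 3 were higher and 1 lower, TRM15 rising by 0.46 ± 0.10. Except for TRM82, which shares only the stem, they are named for a motif that recruits the TONNEAU1 protein. Without clv3-7 replicate 2, clv3-7 replicate 3 or Col-0 replicate 3, 1 was higher, since TRM24 and TRM21 lost their calls. TRM22, which differed from Col-0 by -0.27, was 0.21 above the other mutants. Of 19 UGT genes, which transfer sugars to small molecules, 1 was higher and 3 were lower, among them UGT88A1, which read 170, 176 and 182 in clv3-7, against 239, 252 and 242 in Col-0. UGT76D1, the higher one, lost its call without clv3-7 replicate 3 or Col-0 replicate 2 or 3 (adjusted p = 0.0506 to 0.0669), and UGT84A1 lost its call without clv3-7 replicate 1 or Col-0 replicate 1 or 2 (0.0519 to 0.228). GH9B7, a second family 9 endoglucanase, read 537, 540 and 552 in clv3-7, against 441, 428 and 413 in Col-0 (0.34 ± 0.06), and lay above all 21 other arrays.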

How the data were processed

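The deposited values are MAS5 signal intensity per probe set, made by the authors per the submitters' processing notes; neither version nor settings are stated there. The mean after trimming 2% at each end was near 100 on every array. No further normalization was applied. Signals were taken as log2(signal + 8), 64 control probe sets were left out, and probe sets with at least 3 of the 24 apex arrays above the 40th percentile of their array were kept. The model of 8 genotype means used limma 3.58.1 in R 4.3.3 (lmFit, eBayes with trend, 16 residual degrees of freedom, two-sided). The fit was tested on simulated data. Precision is limited by 3 arrays per group.

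The platform annotation gave 1 gene for 13513 probe sets, several for 503 and none for 8730; symbols came from RefSeq, and a gene with several probe sets took that with the highest mean. Of 7919 tested genes 1136 had a symbol. Of 322 list entries 71 had a probe set, and 10 of 17 lists had at least 3 tested members. LFY, AP1, AP2, AP3 and AG were not analysed here. The comparison, gene lists, families and the rule for named genes were chosen with earlier results of these data known. The rule took all tested CLAVATA and stem cell genes and UFO; the 12 highest and 12 lowest symbols and 5 highest and 5 lowest locus-only genes called the same way against both references, with a mean of at least 32 in the higher group and no overlap with Col-0; up to 4 members of each list or family with at least 3 calls; and up to 4 genes each called against Col-0 only or in opposite ways. Other genes were named as list members or after their values were seen. Replicate letters did not pair clv3-7 with Col-0: same-letter correlations of deviations were -0.082, -0.037 and -0.112. Plots used matplotlib 3.10.9 (Python 3.11.15).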

Additional observations from a re-analysis of the deposited data

Results flagged for a closer look

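For 9 of the named genes, clv3-7 and the mean of the other 6 mutants were each called against the same Col-0 arrays, in opposite directions, and the difference between them was called as well. The difference, clv3-7 minus the other 6 mutants on the log2(signal + 8) scale, was 0.63 for ULT1, 1.07 for IQD22, 0.87 for SWEET8, 1.35 for AT3G59270, 0.54 for EXPA4, -0.71 for ARPN, -1.76 for orfX, -1.41 for rps15 and -1.43 for AT1G73650. AT3G59270 read 88.4, 95.0 and 88.0 in clv3-7, against 45.3, 38.7 and 44.1 in Col-0, and 15.7 to 51.4 in the other mutants. AT1G73650 read 56.6, 54.8 and 52.4 in clv3-7, against 145, 125 and 127 in Col-0, and 138 to 188 in the other mutants.

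The added dap control transcript, outside the measurement of plant genes, reached 7.76 on the Col-0 inflorescence apex arrays and 3.29 on the clv3-7 arrays. Among the other groups only the first node, at 8.11, was as high.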

How the results depend on the processing

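With only probe sets of 1 gene and no shared-target suffix, which by construction leaves fewer to test, 1352 were called between clv3-7 and Col-0, 2421 between clv3-7 and the other 6 mutants, 1587 between those mutants and Col-0, and 869 the same way against both. With 1 clv3-7 or Col-0 array left out, the counts were 1937 to 2276, 3468 to 4721, 2131 to 3333 and 1232 to 1456; fewer arrays are tested by construction. The count of the other 6 mutants against Col-0 fell most without Col-0 replicate 1 (2131) and Col-0 replicate 2 (2184). With the replicate letters as a block the counts were 2728, 4690, 3280 and 1689. After median scaling the share of higher calls was 53.3% against Col-0, 38.2% against the other mutants and 45.4% among those called the same way against both, beside 54.5%, 57% and 55.3% as deposited. With the other 6 mutants in place of Col-0, only genes named by the rule were checked. Among them the sign turned for COR15A (-0.23), THI2.2 (0.29), scpl25 (4.58e-06), TRM22 (0.21), GILT (0.0214), petN (0.0373), QQS (0.68), SWEET10 (-0.48), MSRB5 (0.51) and ECS1 (-0.39). Some genes named outside the rule turned too, such as atpA (0.22 against Col-0, -0.87 against the mutants) and EMS1 (-0.08 and 0.30). The cause was not tested. Across the genes named by the rule and single arrays left out, 77 values lost their call, 2 gained one and 401 kept their side. Those 401 include genes that were never called, and genes named outside the rule were not counted. With an array number of 3 per group, small differences are not detectable, and signals near the offset of 8 understate fold changes.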

Other observations

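EXPA4, an expansin that loosens cell walls, averaged 429 in clv3-7 and 329 in Col-0 lay above all 21 other arrays, and was called higher than 5 of the 6 other mutants. EXPB3, of the beta class, averaged 531 in clv3-7 and 372 in Col-0. JKD, a zinc-finger gene of tissue boundaries in the root, averaged 64.8 in clv3-7 and 42.3 in Col-0, and KELP, a transcriptional coactivator, averaged 177 in clv3-7 and 103 in Col-0. These genes were picked after their values had been seen, and JKD lost its call against Col-0 without clv3-7 replicate 1 or 2 or Col-0 replicate 1 or 3 (adjusted p = 0.0546 to 0.0769).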
